A study of Mus musculus with 15 samples.

Results

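The immediate early stress genes studied here are Fos, Fosb, Jun, Junb, Egr1, Atf3, Nr4a1, Dusp1, Zfp36 and Ier2, taken by gene name from the expression tables of a mouse lung RNA-seq study. They are 10 of the 57010 genes listed, and all 10 had enough counts to be tested. The study asks what DMSO, a solvent, does in lungs exposed to silica dust, and its 15 libraries form 4 groups. The silica_DMSO lungs (n = 4, libraries 2, 4, 5 and 6) came from mice given silica by nasal drops and then DMSO on the second day. The silica lungs (n = 3, libraries 1, 2 and 7) had silica alone, the DMSO lungs (n = 4, libraries 1, 4, 6 and 7) had DMSO alone, and the control lungs (n = 4, libraries 1, 2, 4 and 7) had physiological saline. All mice were labelled C57BL/J with no altered allele named, and lungs were taken after 30 days. The labels name neither doses nor separate animals, so p-values measure the spread between these libraries. In bulk lung RNA, fewer cells of a type and less RNA per cell cannot be told apart.

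Immediate early genes are transcribed within minutes of a growth factor, stretch, wound or other stress, without new protein synthesis, through kinases that act on serum response factor and its partners and on CREB at promoters that are already open. Fos and Jun proteins pair into the AP-1 transcription factor, and further members of the set, such as the phosphatase gene Dusp1 and the mRNA decay gene Zfp36, shut the response down again. Their mRNAs decay quickly, so that a tissue's level reflects a short time before it was taken. The question put to these data was whether the levels go with the treatment groups or with single libraries.

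The promoters are shown with matches to sites of factors known to act in this response. Promoter entries of RefSeq (build GRCm38.p6) were matched for 8 of the 10 genes, and Egr1 and Ier2 were not searched. The 150 bases before the transcription start are printed for 6 genes that carry different sites. Capitals mark the cAMP response core site (TGACG or its complement CGTCA, which CREB and ATF proteins bind), the longer site TGANNTCA of AP-1 and CREB, the CArG box of serum response factor, and TATAA on the gene's strand. The stretches are those of Fos (chr12:85473740-85473889, plus strand), Jun (chr4:95052223-95052372, minus strand), Atf3 (chr1:191183334-191183483, minus strand), Nr4a1 (chr15:101266696-101266845, plus strand), Dusp1 (chr17:26508473-26508622, minus strand) and Zfp36 (chr7:28379229-28379378, minus strand), each read 5′ to 3′ on the gene's strand.
Fos: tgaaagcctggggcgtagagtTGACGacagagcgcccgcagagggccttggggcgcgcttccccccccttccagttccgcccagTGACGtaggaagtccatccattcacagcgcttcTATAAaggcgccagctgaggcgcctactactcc
Jun: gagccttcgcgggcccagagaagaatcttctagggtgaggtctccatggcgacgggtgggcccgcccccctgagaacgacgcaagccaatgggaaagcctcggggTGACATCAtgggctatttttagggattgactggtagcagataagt
Atf3: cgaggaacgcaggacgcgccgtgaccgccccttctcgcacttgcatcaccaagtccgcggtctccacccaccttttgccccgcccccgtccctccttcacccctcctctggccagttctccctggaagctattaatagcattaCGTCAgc
Nr4a1: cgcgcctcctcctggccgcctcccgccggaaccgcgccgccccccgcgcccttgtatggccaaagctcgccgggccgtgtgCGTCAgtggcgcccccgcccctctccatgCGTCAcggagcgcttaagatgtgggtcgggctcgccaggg
Dusp1: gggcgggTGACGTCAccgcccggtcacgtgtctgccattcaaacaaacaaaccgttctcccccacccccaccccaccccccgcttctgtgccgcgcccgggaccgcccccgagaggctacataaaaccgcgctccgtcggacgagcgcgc
Zfp36: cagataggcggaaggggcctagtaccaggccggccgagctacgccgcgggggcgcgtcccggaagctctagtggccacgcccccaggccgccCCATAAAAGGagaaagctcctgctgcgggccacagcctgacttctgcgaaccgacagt
In the 250 bases before the start, the core site stood in 6 of the 8 promoters (Fos, Fosb, Junb, Atf3, Nr4a1 and Dusp1) and in 17.8% of the 32851 promoters in the table. The full element TGACGTCA, which contains the core site, stood in Dusp1 and in 1.55% of all promoters. The site TGANNTCA was found in Jun and Dusp1, against 11.9% of all promoters, and the shorter AP-1 site TGANTCA in none of the 8, against 6.75%. The CArG box stood in Zfp36 and in 1.47% of all promoters, and TATAA in Fos, 33 bases before its start, and in 16% of all promoters. GGGCGG or its complement, the box of Sp1, stood in 7 of the 8, against 32.7%. All motifs but TATAA were searched on both strands. These are matches of letters in a window, which leave out any site farther upstream.

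Several libraries stood apart before any gene of the set was considered. The libraries labelled DMSO 7, silica_DMSO 4 and silica_DMSO 6 held thymus RNA: the summed level of 9 thymocyte markers was 3446 to 4203 TPM there and 2.40 to 36.3 TPM in the other 12, and that of 7 alveolar type 2 markers 281 to 13219 TPM there and 16911 to 52944 TPM in the other 12. Results on the set are therefore given with and without them. Of the 12, silica_DMSO 5, silica 7, DMSO 1, DMSO 4 and control 1 had 11.5% to 24.2% of counts in genes over 3000 bases, and the other 7 had 34.0% to 44.9%. Totals were 17434649 to 20829960 estimated counts per library. The extraction notes speak of retinas, but 6 retina markers summed to 0.04 to 1.24 TPM in all 15 libraries, and the 12 show lung markers as their label says.

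Fos, Fosb, Jun and Junb, subunits of AP-1, each had their highest level in control 4. Levels are given in TPM (a level per transcript length, scaled to the same total in every library), in the order of the library numbers above. Fos (ENSMUSG00000021250), the founding subunit, which pairs with Jun proteins, was at 34.9, 4.02, 6.15 and 2.11 TPM in silica_DMSO lungs, 14.7, 29.6 and 10.8 TPM in silica lungs, 5.31, 2.54, 89.8 and 11.6 TPM in DMSO lungs and 7.64, 35.4, 212 and 104 TPM in control lungs. Control 4, control 7 and DMSO 6 were the 3 highest libraries, and the ranges of the 4 groups overlapped. Over the 12 libraries without thymus RNA the highest Fos level was 83.5-fold the lowest. Jun (ENSMUSG00000052684), the subunit that can also pair with itself, was at 69.1, 9.87, 10.47 and 5.57 TPM in silica_DMSO lungs, 46.9, 54.6 and 26.1 TPM in silica lungs, 17.1, 3.13, 119 and 28.8 TPM in DMSO lungs and 32.8, 75.8, 207 and 112 TPM in control lungs. The same 3 libraries were highest, in the same order except that DMSO 6 stood above control 7, and all 4 ranges overlapped. Fosb (ENSMUSG00000003545), a close relative of Fos that is low in unstimulated tissue, was at 3.6, 0.65, 0.05 and 0.42 TPM in silica_DMSO lungs, 1.14, 1.1 and 1.39 TPM in silica lungs, 0.07, 0.01, 2.12 and 0.67 TPM in DMSO lungs and 0.23, 1.22, 6.52 and 2.1 TPM in control lungs. Its level was under 0.3 TPM in silica_DMSO 5, DMSO 1, DMSO 4 and control 1, and highest in control 4 and silica_DMSO 2. Junb (ENSMUSG00000052837), a subunit known to temper Jun, was at 44.8, 47.97, 9.49 and 34.8 TPM in silica_DMSO lungs, 45.6, 45.3 and 39.8 TPM in silica lungs, 15.5, 9.92, 95.9 and 31.7 TPM in DMSO lungs and 8.63, 39.3, 154 and 92.6 TPM in control lungs. The 3 silica lungs lay within 39.8 to 45.6 TPM, while the control lungs spanned 8.63 to 154 TPM on either side of them.

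Atf3, a stress-induced member of the ATF and CREB family, differed from the AP-1 genes in where it was high. Atf3 (ENSMUSG00000026628) was at 10.7, 5.13, 4.32 and 3.48 TPM in silica_DMSO lungs, 19.5, 14.3 and 9.3 TPM in silica lungs, 3.63, 2.38, 8.67 and 4.64 TPM in DMSO lungs and 2.13, 5.09, 18.8 and 7.82 TPM in control lungs. Silica 1 had the highest level of the 15, followed by control 4 and silica 2, and silica overlapped control only through control 4 on this scale. Its highest level was 9.15-fold its lowest over the 12 libraries, the narrowest range of the 10 genes.

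Egr1 and Nr4a1, transcription factors outside AP-1, were high in the libraries with thymus RNA as well as in those with high Fos. Egr1 (ENSMUSG00000038418), a zinc-finger factor induced through serum response factor, was at 16.3, 46.5, 1.28 and 35.3 TPM in silica_DMSO lungs, 7.84, 13.4 and 5.16 TPM in silica lungs, 1.69, 0.37, 39.3 and 37.3 TPM in DMSO lungs and 4.85, 24.01, 100.4 and 43.2 TPM in control lungs. Nr4a1 (ENSMUSG00000023034), the orphan nuclear receptor Nur77, which antigen receptor signals induce in developing T cells, was at 12.7, 46.6, 2.37 and 30.2 TPM in silica_DMSO lungs, 7.22, 14.96 and 5.11 TPM in silica lungs, 5.75, 0.52, 34.1 and 31.5 TPM in DMSO lungs and 4.35, 22.7, 64.2 and 26.5 TPM in control lungs. For both genes control 4 was the highest library. In the 3 libraries with thymus RNA Egr1 lay between 35.3 and 46.5 TPM and Nr4a1 between 30.2 and 46.6 TPM. Among the 12 other libraries, only control 4, control 7 and DMSO 6 had as much Egr1, and only control 4 and DMSO 6 as much Nr4a1.

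The feedback genes had the same 3 leading libraries as Fos and Jun. Dusp1 (ENSMUSG00000024190), a phosphatase that inactivates the p38 and JNK kinases upstream of AP-1, was at 160.2, 16.9, 33.9 and 14.5 TPM in silica_DMSO lungs, 48.5, 107 and 50.8 TPM in silica lungs, 48.0, 11.1, 281 and 62.01 TPM in DMSO lungs and 58.6, 218, 426 and 249 TPM in control lungs. Control 4 was highest again, followed by DMSO 6 and control 7, and DMSO 4 was lowest. Zfp36 (ENSMUSG00000044786), whose protein tristetraprolin binds AU-rich mRNAs and speeds their decay, was at 51.3, 43.9, 3.2 and 39.7 TPM in silica_DMSO lungs, 35.9, 39.2 and 23.7 TPM in silica lungs, 13.3, 4.24, 131 and 48.6 TPM in DMSO lungs and 16.6, 60.5, 222 and 106 TPM in control lungs. The same 3 libraries held more than 100 TPM, and no other library more than 61 TPM. Ier2 (ENSMUSG00000053560), a nuclear protein of the early response, was at 33.6, 33.8, 9.93 and 29.6 TPM in silica_DMSO lungs, 23.1, 33.1 and 25.9 TPM in silica lungs, 20.3, 10.8, 80.01 and 25.6 TPM in DMSO lungs and 38.01, 41.9, 94.98 and 86.6 TPM in control lungs. On the TPM scale all 3 silica lungs had less Ier2 than all 4 control lungs, and no other gene of the set parted those groups.

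**Figure D1:**
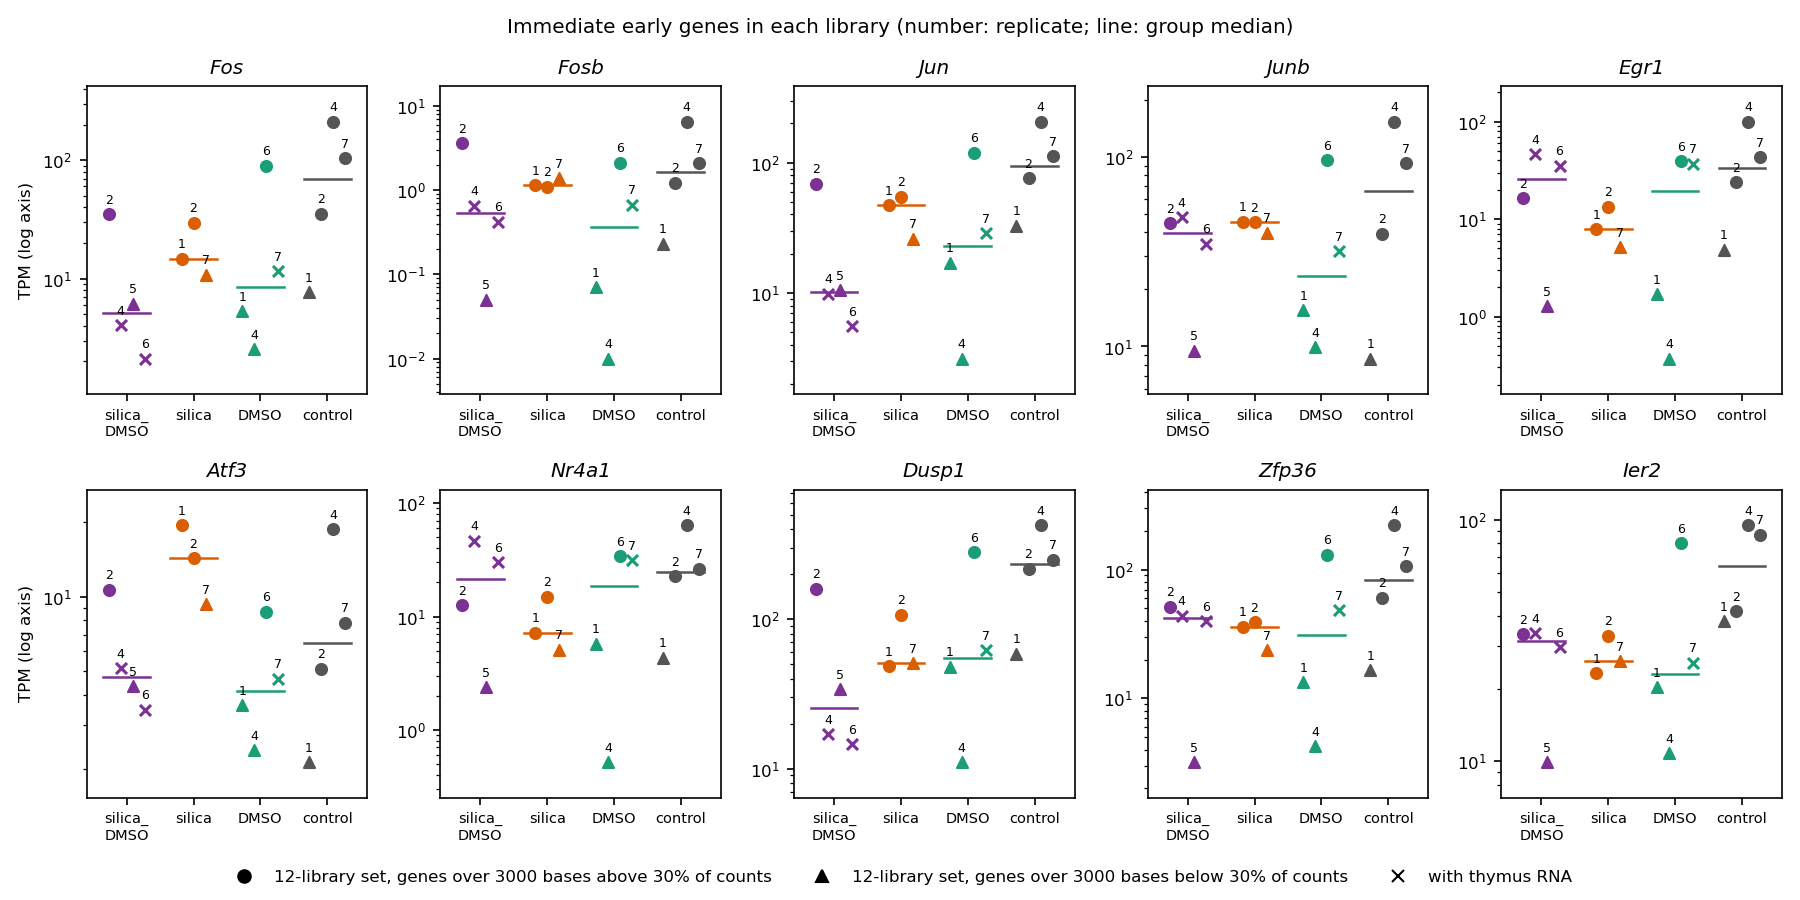
TPM of each of the 10 genes (log axis) in the 15 libraries by group, with the library number at each point, a line at the group median, and other symbols for libraries with thymus RNA or with under 30% of counts in long genes. Control 4, control 7 and DMSO 6 are the top 3 for Fos, Jun, Junb, Dusp1, Zfp36 and Ier2.

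Most of the genes were high and low in the same libraries. On the log2 scale of normalised CPM (counts over library size, scaled by TMM, the trimmed mean of M-values), all 10 genes were above their median over the 15 libraries in DMSO 6 and control 4, and 9 in control 7. The mean deviation of the 10 genes from their medians was 0.32, -0.78, -0.10 and -1.08 in silica_DMSO lungs and -0.62, 0.35 and 0.18 in silica lungs. It was -0.85, -1.59, 1.35 and -0.55 in DMSO lungs and -0.42, 0.38, 1.89 and 1.30 in control lungs. Control 4, DMSO 6 and control 7 thus led. Silica 2 and silica 7 lay within the range of the control group and silica 1 below it, and all 3 lay within the range of the DMSO group.

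**Figure D2:**
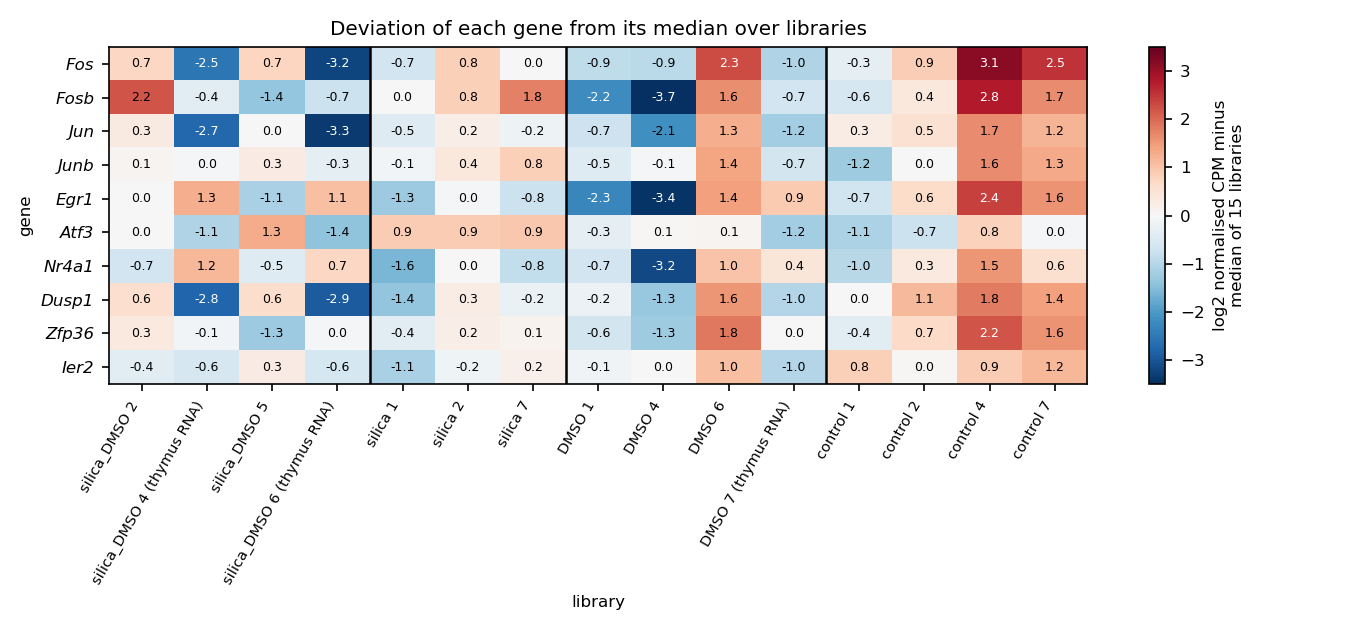
Log2 normalised CPM of each gene minus its median over the 15 libraries (colour and number), with libraries by group along the x axis and genes down the y axis. Control 4 and DMSO 6 are above the median for all 10 genes, while the libraries with thymus RNA are low for Fos, Jun and Dusp1.

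The median Pearson r between pairs of the 10 genes was 0.71 over the 12 libraries without thymus RNA (45 pairs) and 0.56 over all 15. These are descriptions, since the genes share each library's depth and composition. For the 9 genes without Atf3 it was 0.81 over the 12 libraries, and 0.73 without the libraries of the highest and lowest mean deviation. Atf3 with the other 9 had a median of 0.027. In the 7 libraries with more long-gene counts the 9 genes had a median r of 0.94, and in the 5 with fewer 0.50. Against the mean of the other 9 genes, r was highest for Fos (0.96), Egr1 (0.95) and Jun (0.92), was 0.55 for Ier2 and 0.076 for Atf3. On the log2 TPM scale the median over all pairs was 0.92, and that of Atf3 with the others 0.67.

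In the libraries with thymus RNA the set split. Silica_DMSO 4, silica_DMSO 6 and DMSO 7 had 4.02, 2.11 and 11.6 TPM of Fos, and 46.5, 35.3 and 37.3 TPM of Egr1. The median of the other 12 libraries was 22.2 TPM for Fos and 10.6 TPM for Egr1. Fos, Jun and Dusp1 thus stood below that median in all 3, while Egr1, Nr4a1 and Zfp36 stood above it in TPM. For Dusp1 the 3 had 16.9, 14.5 and 62.0 TPM against a median of 82.7 TPM, and for Nr4a1 46.6, 30.2 and 31.5 TPM against 9.94 TPM. In normalised CPM Zfp36 turned, at 82.5, 86.0 and 88.6 in the 3 against a median of 100.3 in the other 12, while the other 5 genes kept their side. Because these libraries are in the silica_DMSO and DMSO groups, they bear on every comparison with either group.

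Which library was high depended partly on the scale. TMM factors were 0.478 in silica_DMSO 5, 0.616 in DMSO 4 and 0.898 to 1.24 in the others. Silica_DMSO 5 had a mean deviation of -0.10 in normalised CPM, but -2.01 in log2(TPM + 0.1), with all 10 genes under their median TPM. DMSO 6, control 4 and control 7 led on both scales, at 1.54, 2.47 and 1.47 on the TPM scale, and DMSO 4 was the lowest on both, at -1.59 and -2.89. The 5 libraries with fewer long-gene counts had mean deviations of -2.89 to -0.37 on the TPM scale and the 7 others -0.0013 to 2.47. In normalised CPM the classes overlapped, at -1.59 to 0.18 and -0.62 to 1.89. The part of library composition in the levels was not tested.

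**Figure D3:**
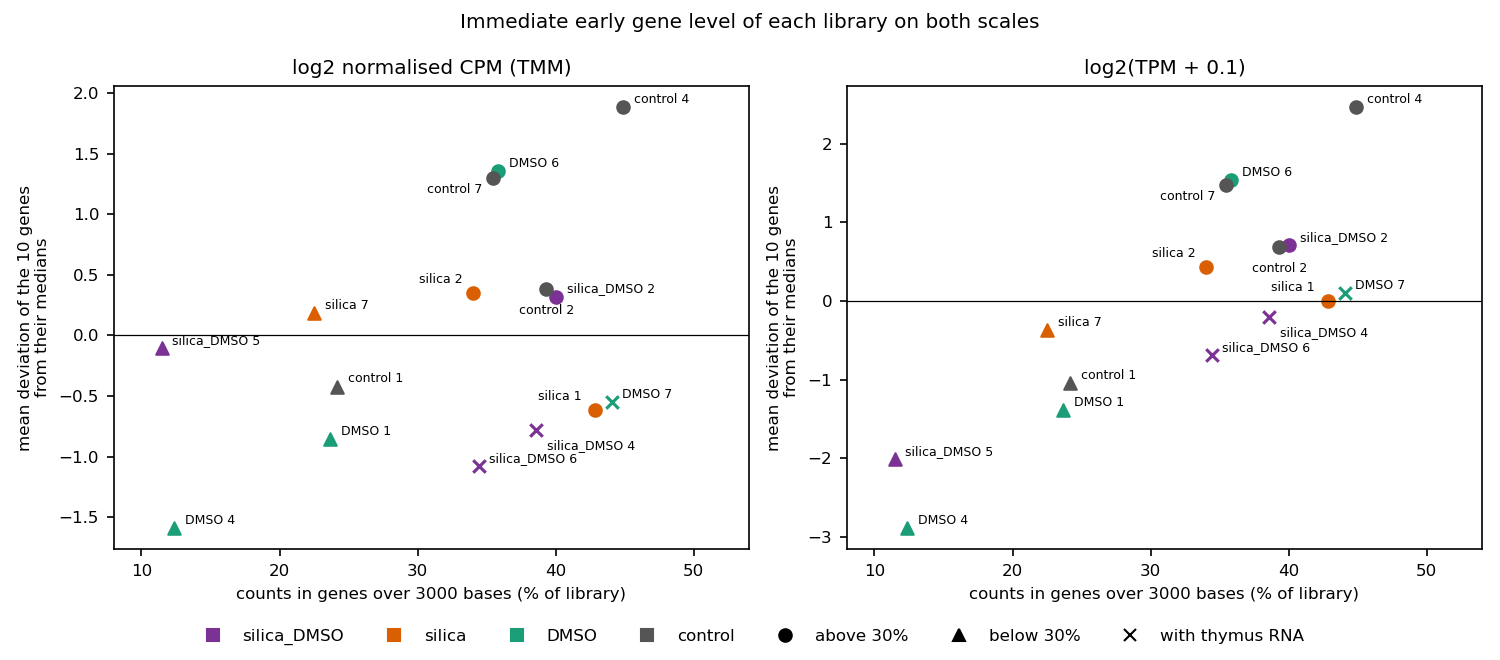
Mean deviation of the 10 genes from their medians (y axis, log2) against the percentage of a library's counts in genes over 3000 bases (x axis), in normalised CPM (left) and in log2(TPM + 0.1) (right), with each point a library. Control 4, DMSO 6 and control 7 are highest in both panels, and silica_DMSO 5 is at -0.10 on the left and -2.01 on the right.

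Silica against control, the effect of dust without DMSO, gave lower values for 9 of the 10 genes, none of which passed the test, and a higher one for Atf3. In edgeR's quasi-likelihood test over 17879 genes and all 15 libraries, 0 of 10 were called at an adjusted p under 0.05, as were 0% of all genes. Fos averaged 18.4 ± 9.93 TPM in silica lungs and 89.7 ± 91.1 TPM in control lungs (SD, n = 3 and 4), with a log2 fold change of -1.93 ± 1.16 (SE). Dusp1 had a log2 fold change of -1.53 ± 0.94, Zfp36 of -1.30 ± 0.73 and Jun of -1.13 ± 0.90. Those of Egr1 and Nr4a1 were -1.99 ± 1.04 and -1.30 ± 0.82, and those of Junb and Fosb -0.40 ± 0.61 and -0.54 ± 1.21. Atf3 averaged 14.4 ± 5.095 TPM in silica lungs and 8.45 ± 7.26 TPM in control lungs, with a log2 fold change of 0.99 ± 0.61. Ier2 averaged 27.4 ± 5.15 TPM in silica lungs and 65.4 ± 29.6 TPM in control lungs, with a log2 fold change of -1.06 ± 0.48 and edgeR's lowest unadjusted p of the set (0.0437, adjusted p = 1). At an unadjusted p under 0.05 it was the 1 gene of the set, against 2.92% of all genes. The median log2 fold change of the 10 was -1.21, against 0 over all genes tested, and 49.7% of all genes were below 0.

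Leaving out the thymus libraries, which belong to neither group, changed this little. Again 9 of 10 were below 0, against 53% of all genes, with a median of -1.24. By edgeR 0 of 10 were called, against 0.0113% of all genes, and Ier2 and Dusp1 had an unadjusted p under 0.05, against 5.98% of all genes. With only the 7 silica and control libraries 0 of 10 were called, against 0.249% of genes, with a lowest adjusted p of 0.36. At an unadjusted p under 0.05 that fit had 7 of 10 (Fos, Jun, Egr1, Dusp1, Zfp36 and Ier2 lower in silica, and Atf3 higher), against 9.39% of all genes. DESeq2 called 0 of 10 as well, against 0.246%. Voom of limma with quality weights, which gives libraries unequal weight, called 4 (Dusp1, Egr1 and Ier2 lower and Atf3 higher), against 8.22% of genes. Control 4 weighed on the sizes: without it the log2 fold change was -1.30 for Fos, -0.79 for Nr4a1 and -0.81 for Zfp36, and the sign turned for Fosb (0.28) and Junb (0.030).

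In normalised CPM the silica and control libraries did not overlap for 2 genes. Jun was at 107, 172 and 129 normalised CPM in silica lungs and at 175, 213, 464 and 337 in control lungs. Atf3 was at 25.8, 26.2 and 26.96 in silica lungs and at 6.41, 8.32, 24.4 and 13.7 in control lungs. Among all genes tested, 4.67% were lower and 5.83% higher in every silica library in this way. In TPM it was Ier2 alone, lower in silica, where 3.07% of all genes were lower and 2.72% higher in this way, so that no gene parted the groups on both scales.

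Within the classes of long-gene content the directions differed. In the 7 libraries with more such counts, silica (n = 2) minus control (n = 3) was -2.10 for Fos, -2.02 for Dusp1, -2.20 for Egr1 and -1.25 for Jun in log2 normalised CPM, and Atf3 alone was above 0 (0.88). In the other class silica 7 minus control 1 was 0.33 for Fos, -0.23 for Dusp1, -0.069 for Egr1 and -0.44 for Jun. Fosb, Junb and Atf3 were higher there by 2.36, 2.08 and 2.06, Zfp36 by 0.51 and Nr4a1 by 0.13, and Ier2 was the lowest at -0.67. With the class as a term and without thymus libraries, a fit chosen after seeing the data, Fosb turned to 0.69. The other genes of the set kept their sign, and edgeR called 0 of 10, against 15 of the 17630 genes tested. Marker sums of other cells parted the same groups for endothelium, alveolar type 1 cells and cardiac muscle. They overlapped for alveolar type 2 cells, club cells, fibroblasts, smooth muscle, neutrophils, alveolar macrophages, T cells and B cells. Endothelial markers (7 genes) summed to 557 to 806 TPM in silica lungs and 986 to 1676 TPM in control lungs. Alveolar type 1 markers (5 genes) summed to 1171 to 1597 TPM in silica and 1914 to 2540 TPM in control lungs, and cardiac muscle markers (4 genes) to 50.2 to 152 TPM in silica and 187 to 499 TPM in control lungs. None of these markers was at 0 in every library of a group, and their part in the values of the set was not tested.

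DMSO against control, DMSO without dust, gave values below 0 for all 10 genes and no call. The edgeR test called 0 of 10, against 0% of all genes, and 0 of 10 had an unadjusted p under 0.05, against 7.13% of all genes. Fos averaged 27.3 ± 41.8 TPM in DMSO lungs and 89.7 ± 91.1 TPM in control lungs (SD, n = 4 each), with a log2 fold change of -1.43 ± 1.03 (SE). Fosb, Jun, Egr1 and Dusp1 had -1.61, -1.14, -1.08 and -1.003. Zfp36, Ier2, Nr4a1, Junb and Atf3 had -0.81, -0.63, -0.59, -0.53 and -0.18. The median was -0.91, against 0.14 over all genes tested, of which 41.5% were below 0. The DMSO group has libraries at either end: DMSO 6 is second only to control 4 for Jun, Dusp1 and Zfp36, and DMSO 4 is last for Jun and Dusp1. The lowest control library, control 1, was at 32.8 TPM of Jun and 58.6 TPM of Dusp1, rank 8 of 15 for both. Control 1 was last of the 15 for Junb and Atf3. Without DMSO 6 the value of Fos was -3.07 and without control 4 -0.81. For Jun it was -2.26 without DMSO 6, and for Dusp1 -2.01. Without the thymus libraries 9 of 10 were below 0, with a median of -0.75, against 52.2% of all genes, and the edgeR test again called 0 of 10, against 0%. DESeq2 called 0 of 10, against 0.352%, and limma-voom with quality weights called 9, against 38.9%. No gene of the set parted these groups on either scale. The endothelial marker sum was 172 to 1103 TPM in the 3 DMSO lungs without thymus RNA and 986 to 1676 TPM in control lungs, so that they overlapped. Neutrophil markers (7 genes) summed to 943 to 1472 TPM in those DMSO lungs and 235 to 748 TPM in control lungs, and cardiac muscle markers to 33.4 to 124 TPM in those DMSO lungs and 187 to 499 TPM in control lungs, with no overlap. Sums of alveolar type 1, alveolar type 2, club cell, fibroblast, smooth muscle, alveolar macrophage, T cell and B cell markers overlapped. The part of any of these sums in the values was not tested.

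Silica_DMSO against silica, the effect of DMSO after dust, gave 6 values below 0, against 47.3% of all genes, and 4 above. The edgeR test called 0 of 10, against 0% of all genes, and 0 of 10 had an unadjusted p under 0.05, against 5.91%. Egr1 and Nr4a1, which are high in the thymus libraries, had the highest log2 fold changes, 1.18 ± 1.01 and 1.06 ± 0.81 (SE). Without those libraries they were 0.14 and 0.096. Fos was at -0.34 ± 1.09 with them and 0.54 ± 1.06 without, Jun at -0.57 with and 0.27 without, and Fosb at -0.39 with and 0.28 without. Dusp1 had 0.028 with them and 0.89 without, Ier2 0.00047 with and 0.26 without. Atf3 stayed below 0 at -0.81 with and -0.13 without, as did Junb (-0.40 and -0.24) and Zfp36 (-0.17 and -0.27). The median of the 10 was -0.25 with the thymus libraries and 0.20 without, against 0.051 and -0.016 over all genes. Without them 3 of 10 were below 0, against 51.1% of all genes, and edgeR called 0 of 10, against 0%. The silica_DMSO group then holds only libraries 2 and 5, with 34.9 and 6.15 TPM of Fos. Dusp1 was the 1 gene that parted the groups in normalised CPM, higher in both. Of all genes, 2.77% were higher and 4.05% lower in this way. In TPM Dusp1 overlapped, at 160.2 and 33.9 TPM in libraries 2 and 5 and 48.5 to 107 TPM in silica lungs. DESeq2 called 0 of 10, against 0.375%, and limma-voom with quality weights called 6, against 68.7%.

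Silica_DMSO against DMSO, dust in mice that all had DMSO, gave 6 values below 0, against 50.4% of all genes, and 4 above. The edgeR test called 0 of 10, against 0% of all genes, and 0 of 10 had an unadjusted p under 0.05, against 1.71%. Log2 fold changes ran from -0.83 ± 1.02 (SE) for Fos to 0.68 ± 1.12 for Fosb, with a median of -0.35, against -0.0044 over all genes. Without thymus libraries 6 of 10 were below 0, against 45.5% of all genes, with a median of -0.30, and edgeR called 0 of 10, against 0%. These were not the same 6: Jun and Dusp1 turned to above 0 and Egr1 and Nr4a1 to below. Silica_DMSO 2, 4 and 5 lay within the DMSO range of 2.54 to 89.8 TPM for Fos, and silica_DMSO 6 below it. Without DMSO 6 the value of Fos was 0.80 and that of Fosb 2.497. DESeq2 called 0 of 10, against 0.00559%, and limma-voom with quality weights 6, against 69.4%.

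The interaction asks whether the change with DMSO differs between lungs with and without silica. No gene was called by edgeR (0 of 10, against 0% of all genes), and 0 of 10 had an unadjusted p under 0.05, against 1.66%. The highest value was 2.26 ± 1.36 (SE) for Egr1 and the lowest -0.63 ± 0.84 for Atf3, the 1 gene of 10 below 0, against 50% of all genes. Without the thymus libraries 9 of 10 were above 0 and 1 below, against 45.7% of all genes below 0. The median of the 10 was then 1.01 (0.84 with them), against 0.074 over all genes. In that fit edgeR called 0 of 10, against 0% of all genes. The 4 comparisons share groups with each other, so that their values are not independent. Without DMSO 6 the interaction of Fos was 2.73 and without control 4 0.47. DESeq2 called 0 of 10, against 0.0447%, and limma-voom with quality weights 7, against 60.5%.

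**Figure D4:**
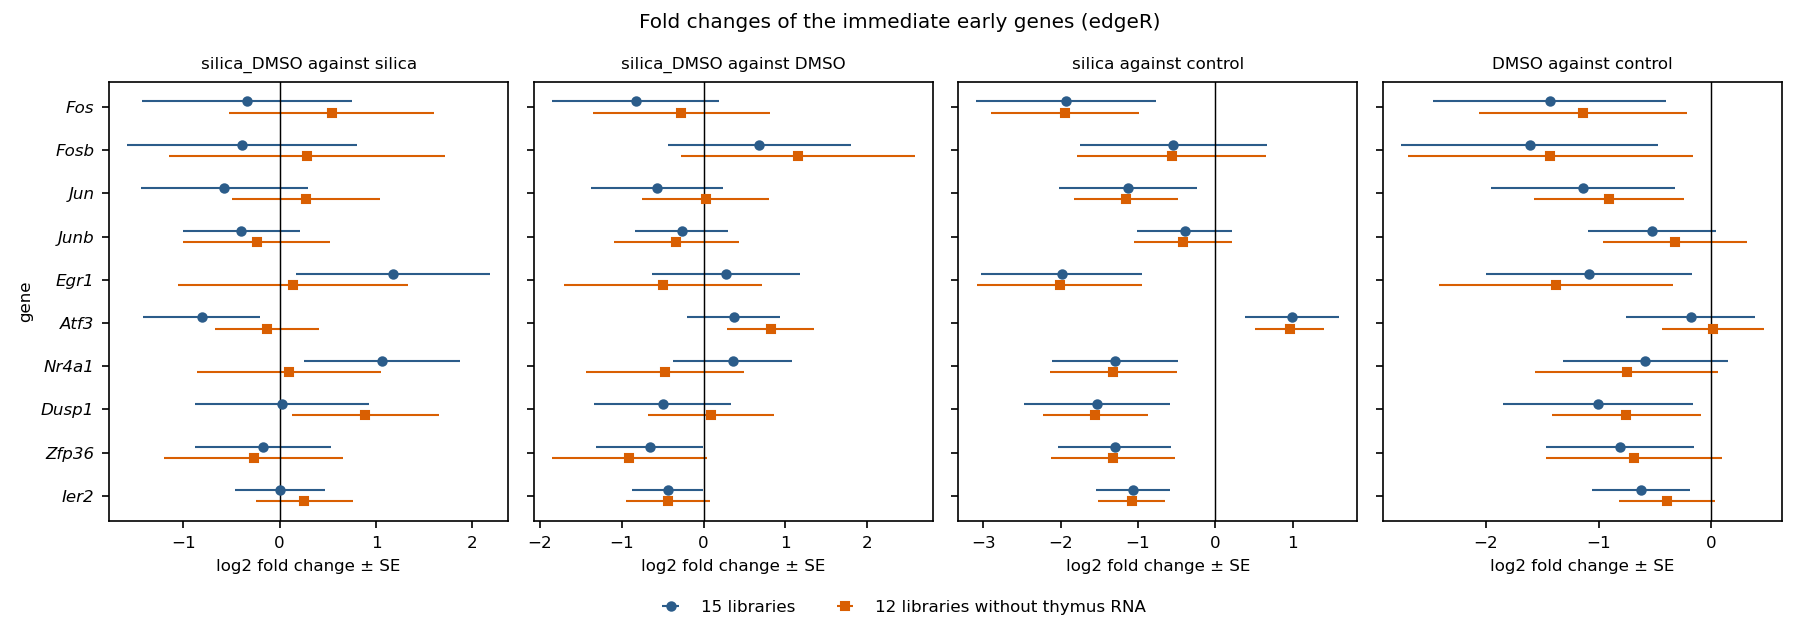
Log2 fold change of each gene (x axis, bars: SE from edgeR) in the 4 comparisons, from the fit of all 15 libraries and from that of the 12 without thymus RNA. For silica against control, Atf3 is right of 0 and the other 9 genes are left of it in both fits.

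A test of any difference among the 4 groups called 0 of 10 genes (edgeR, 0% of all genes called, adjusted p 0.69 to 0.89). At an unadjusted p under 0.05 it was 0 of 10, against 7.81% of all genes. Without the thymus libraries edgeR called 0 of 10, against 0.00567%. DESeq2 called 0 of 10, against 1.54%, and limma-voom with quality weights 10, against 85.6%. The share of the variance over the 15 libraries that lay between groups, in log2 normalised CPM, was highest for Ier2 (40.4%) and Jun (39.3%) and lowest for Nr4a1 (17.6%) and Junb (6.13%). The median of the 10 was 30.3%, against 22.6% for all genes tested. Over the 12 libraries it was highest for Atf3 (49.1%) and Ier2 (45.5%), with a median of 32.1% against 27.3%. The rest lay between libraries of the same group. In TPM the median over 15 libraries was 27.0%, against 15.6%. Between the classes of long-gene content lay 52.1% of the variance of Egr1 and 51.7% of that of Zfp36 over the 12 libraries, but 0.558% of that of Atf3 and 0.0553% of that of Ier2. The median of the 10 was 36.2%, against 36.3% for all genes tested. The SD of log2 normalised CPM over the 12 libraries was 1.10 for the median gene of the set and 0.635 for the median of all genes tested.

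**Figure D5:**
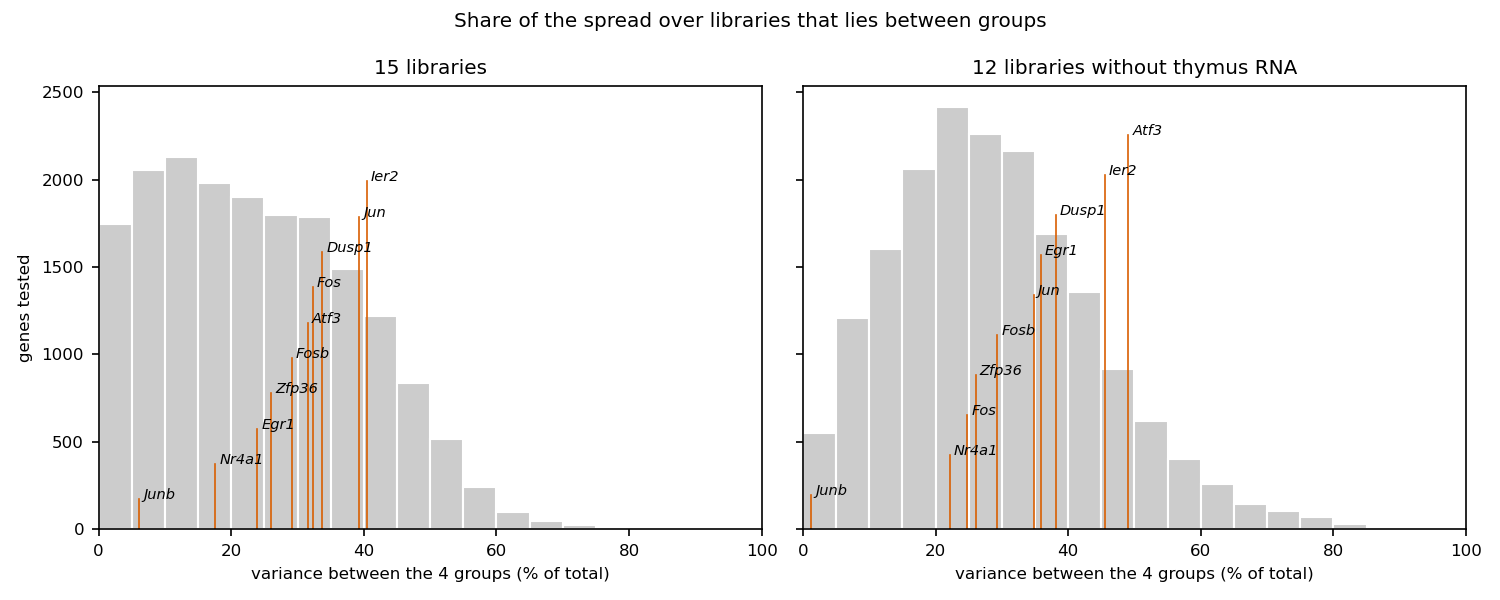
Number of genes tested (y axis) by the percentage of their variance over libraries that lies between the 4 groups (x axis), with a line for each gene of the set at its own percentage (line heights are staggered for the names only), for 15 libraries (left) and for the 12 without thymus RNA (right). Junb is far left at 6.13% and 1.22%, and Ier2 and Atf3 are furthest right of the set at 40.4% and 49.1%.

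The wider early response went both ways in silica lungs. Of 41 other immediate early genes tested (other Egr, Nr4a, Klf, Gadd45 and Dusp genes among them), 18 were above 0 and 23 below in silica against control, with a median of -0.08 against 0 for all genes, and edgeR called 0 in either direction. Of all genes tested, 49.7% were below 0. The 3 with the smallest p pointed both ways. Socs3, the feedback inhibitor of STAT3 signalling, was at 24.9, 20.5 and 22.97 TPM in silica lungs and 5.19, 11.8, 27.4 and 13.6 TPM in control lungs (log2 fold change 0.94 ± 0.33, SE). Per1, a clock gene also induced by stress hormones, was at 15.2, 11.4 and 8.98 TPM in silica lungs and 22.7, 23.8, 40.1 and 24.3 TPM in control lungs (-1.19 ± 0.47). In silica every library had less Per1 than every control library, in TPM and in normalised CPM, as was so for 3.07% and 4.67% of all genes tested. Per1 was named for its small p in this comparison, so that its lack of overlap is no separate result. Rgs1, a brake on chemokine receptor signalling, was at 24.4, 19.9 and 14.4 TPM in silica lungs and 0.57, 6.09, 17.2 and 11.1 TPM in control lungs (1.30 ± 0.61). In DMSO against control 12 of the 41 were above 0 and 29 below, with a median of -0.32 against 0.14 for all genes, of which 41.5% were below 0. Without the thymus libraries 9 were above 0 and 32 below, with a median of -0.30 against -0.040, and 52.2% of all genes were below 0. EdgeR called 0 of them in either fit. In silica_DMSO against silica 15 of the 41 were above 0 and 26 below (18 and 23 without the thymus libraries), 0 called. Socs3 had the smallest p there, at 15.3, 14.3, 2.45 and 10.6 TPM in silica_DMSO lungs and 24.9, 20.5 and 22.97 TPM in silica lungs (-1.29 ± 0.33, edgeR adjusted p = 0.71).

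The kinases and factors upstream of the set (20 tested, among them MAP kinases, Srf, Elk and Mrtf genes and Creb1) had 7 values above 0 and 13 below in silica against control, with a median of -0.16 and 0 called by edgeR. Elk4, Map2k1 and Elk3 had the smallest p. Elk4 and Elk3, partners of serum response factor, had log2 fold changes of -0.91 ± 0.67 and -0.39 ± 0.39 (SE), and Map2k1, the kinase MEK1, had 0.32 ± 0.26. In silica_DMSO against silica 13 were above 0 and 7 below (6 and 14 without the thymus libraries), with the smallest p for Mrtfa, a coactivator of serum response factor, at 0.62 ± 0.43. Its level was 20.3 and 15.9 TPM in the 2 thymus libraries of silica_DMSO and 6.95 and 1.37 TPM in the other 2, and without the thymus libraries its direction turned, to -0.060.

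Heat shock genes, which code for chaperones, were mostly above 0 in silica and in DMSO lungs against control. Of 12 heat shock genes, 10 were above 0 in silica against control (median 0.48) and 11 in DMSO against control (median 0.97, against 0.14 for all genes, and 0.88 without the thymus libraries), with 0 called by edgeR in either. Hsph1, a chaperone of the HSP110 family, was at 51.04, 41.3 and 33.9 TPM in silica lungs and 5.3, 15.9, 19.5 and 40.6 TPM in control lungs (1.11 ± 0.61, log2 and SE). Hspa8, the constitutive HSC70, had 0.78 ± 0.50, and Hspa5, the chaperone BiP of the endoplasmic reticulum, 0.72 ± 0.39. In silica_DMSO against silica 9 of 12 were above 0 (median 0.43), and 11 without the thymus libraries (median 0.41), with 0 called by edgeR in either. Dnajb1, a co-chaperone, had the smallest p, at 1.16 ± 0.59. It was at 30.7, 73.3, 15.3 and 109 TPM in silica_DMSO lungs and 23.9, 26.9 and 21.8 TPM in silica lungs, highest in both libraries with thymus RNA. In log2 normalised CPM silica_DMSO 5, without thymus RNA, stood at 7.62, above silica_DMSO 4 at 7.25. Of 13 integrated stress response genes, 8 were above 0 in silica against control (median 0.068) and 5 in silica_DMSO against silica, 0 called. Slc7a11, the cystine importer, was at 10.4, 1.26 and 2.01 TPM in silica lungs and 0.25, 0.86, 0.36 and 0.45 TPM in control lungs (3.26 ± 1.06). Phgdh and Psat1, enzymes of serine synthesis, had 0.93 ± 0.77 and 0.89 ± 0.77. Phgdh had the smallest p in silica_DMSO against silica, at 2.03 ± 0.82, and its level was 97.5 and 114 TPM in the 2 thymus libraries of that group but 9.51 and 3.57 TPM in the others.

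AU-rich mRNAs that tristetraprolin, the product of Zfp36, is known to bind were above 0 in silica against control for 12 of 12 genes, with a median of 1.85 against 0 for all genes, and edgeR called 0. Ccl2, a monocyte chemokine, was at 14.1, 20.2 and 14.6 TPM in silica lungs and 0.92, 1.15, 3.37 and 3.09 TPM in control lungs (3.15 ± 1.01, log2 and SE). Tnf, the inflammatory cytokine, was at 9.24, 3.37 and 3.38 TPM in silica lungs and 0.58, 2.77, 1.37 and 0.56 TPM in control lungs (2.04 ± 0.63). Plau, the urokinase protease, was at 12.7, 7.5 and 5.27 TPM in silica lungs and 0.59, 2.91, 4.87 and 3.18 TPM in control lungs (1.72 ± 0.43). All 3 silica libraries had more of each than all 4 control libraries, in TPM and in normalised CPM. Of all genes tested, 2.72% and 5.83% were higher in this way. These 3 genes were named for the smallest p of the list in this comparison, so that their lack of overlap is no separate result. With the 7 libraries of these groups alone 11 of the 12 were tested, all above 0, and edgeR called Ccl2, against 0.249% of all genes called. In silica_DMSO against DMSO 12 of 12 were above 0 as well (median 1.30), with 0 called. With only those 2 groups 11 were tested, all above 0. With the DMSO and control libraries alone only 9 of the 12 passed the count filter. Some genes of the list may thus have entered through libraries where they were high, which bears on both counts of 12. In silica_DMSO against silica 6 were above 0 and 6 below (10 and 2 without the thymus libraries). Il23a, a subunit of interleukin-23, had the smallest p there, at 3.39 ± 1.44, with 10.3 and 5.70 TPM in the 2 thymus libraries of silica_DMSO and at most 0.80 TPM in the other 2. In silica and control lungs Il23a was at most 0.45 TPM, so that its value in silica against control rests on low levels. Zfp36 itself had a log2 fold change of -1.30 ± 0.73 in silica against control. Whether its level bears on these mRNAs was not tested.

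Genes outside the set were ranked by how closely their log2 normalised CPM followed the mean standardised profile of the 10 over the 12 libraries without thymus RNA. Of 15491 genes compared, the 8 closest were Ccn1 (r = 0.95), Adrb1 (0.94), Ackr3 (0.92), Sh3bp4 (0.91), Foxf1 (0.91), Ppp1r13b (0.90), Ces2g (0.90) and Klf4 (0.90). Adrb1 is the beta-1 adrenergic receptor, Ackr3 a scavenging chemokine receptor and Klf4 a zinc-finger factor of the early response. The median r over all genes was 0.027, and these values describe 12 libraries that differ in composition. Ccn1, a matricellular protein of the early response, was at 63.9, 4.41, 10.4 and 2.44 TPM in silica_DMSO lungs, 21.3, 63.02 and 14.1 TPM in silica lungs, 9.85, 1.88, 131 and 30.6 TPM in DMSO lungs and 18.1, 67.97, 254 and 103 TPM in control lungs. Its 3 highest libraries were those of Fos, control 4, DMSO 6 and control 7. Foxf1, a transcription factor of lung mesenchyme and endothelium, was at 91.3, 1.18, 12.7 and 0.25 TPM in silica_DMSO lungs, 41.5, 63.7 and 50.6 TPM in silica lungs, 34.5, 5.62, 125 and 34.2 TPM in DMSO lungs and 27.99, 101, 173 and 123 TPM in control lungs. It had the same top 3, and its 2 lowest libraries were those of silica_DMSO with thymus RNA. Over all 15 libraries r was 0.87 for Ccn1, 0.62 for Foxf1 and 0.59 for Ackr3. Among the lists, 17 of the 41 other immediate early genes had an r over 0.5, against 20.0% of all genes, with a median of 0.39. The median was 0.47 for the upstream kinases and factors, -0.12 for the AU-rich mRNAs, -0.30 for the integrated stress response and -0.32 for the heat shock genes.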

How the data were processed

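RNA of 15 mouse lung libraries was measured, in 4 groups taken from the labels. Per the file headers, the authors deposited expected counts per gene (7.52% to 10.03% of them not whole), TPM per gene, and each gene's length, an other value in bases. The 8 columns of the authors' group means were not used. Bowtie 0.12.2 and build mm8 are named, per the submitters' processing notes. What program counted is not given in the sources used. The labels' extraction notes describe retinas, the tissue field lung.

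Expected counts were rounded, which changed a total by at most 53.9. The filterByExpr function of edgeR (smallest count 10, smallest total 15) kept 17879 genes, and libraries were scaled by TMM. The main test was the robust quasi-likelihood F test of edgeR in 1 fit of 4 group means, with Benjamini-Hochberg adjustment over all genes tested and a call at an adjusted p under 0.05. The spread between libraries was wide (biological coefficient of variation 0.666). Alternatives were DESeq2 (its size factors in edgeR, and its own test), limma's trend test on log2(TPM + 1) and log2(TPM + 0.1), limma-voom with quality weights, no filter, a replicate block, only the groups compared, each library left out, and the 12 libraries without thymus RNA, also with a gene length offset (lowess span 0.3) or, chosen after seeing the data, the length class as a term. Deviations and r use log2 normalised CPM with a prior count of 2.

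The 10 genes and the lists were chosen with earlier results of these data known. Named were all 10, of each list the 3 genes of smallest p in silica against control and the 1 in silica_DMSO against silica, and the 8 genes closest to the profile of the 10, leaving out predicted genes and pseudogenes. The test was tried on simulated counts with a spread set below that of these libraries and without thymus RNA. That trial does not show which fold changes could be called in these data. Tools were R 4.3.3, edgeR 4.0.16, limma 3.58.1, DESeq2 1.42.0, package data.table in version 1.17.8, Python 3.11.15 and matplotlib 3.10.9. Promoters came from RefSeq (GRCm38.p6), whose build is not the one the notes name, and no coordinates of the deposited files were used.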

Additional observations from a re-analysis of the deposited data

Results flagged for a closer look

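In the groups of 4 libraries, 30 combinations of gene and group were examined for a library far from the other 3, and 5 were found. The criterion (Dixon's, at 95%) marks about 1 in 20 groups by chance where values follow a normal distribution. That was not checked for TPM, so that the rate may not hold here. The 30 are not independent either, since the genes were high in the same libraries and 4 of the 5 are silica_DMSO 2. All 5 are high TPM values. Silica_DMSO 2 stood apart for Fos, at 34.9 TPM against 2.11 to 6.15 TPM in the other 3 libraries of its group. It also stood apart for Fosb (3.60 TPM against 0.05 to 0.65 TPM), Jun (69.1 TPM against 5.57 to 10.5 TPM) and Dusp1 (160.2 TPM against 14.5 to 33.9 TPM). Of those other 3 libraries, silica_DMSO 4 and silica_DMSO 6 hold thymus RNA and silica_DMSO 5 has the lowest share of counts in long genes, 11.5%, and the part of either was not tested. DMSO 6 stood apart for Fos, at 89.8 TPM against 2.54 to 11.6 TPM in the other 3 DMSO libraries.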

How the results depend on the processing

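Leaving out each library in turn, edgeR called 0 genes and 0 of the 10 in every comparison, a range of 0 to 0. Signs of the log2 fold changes turned in some of these fits for Fosb (-1.13 to 0.28) and Junb (-0.72 to 0.030) in silica against control, Atf3 (-0.41 to 0.29) in DMSO against control, Fosb (-1.90 to 0.19), Fos (-0.83 to 0.14), Dusp1 (-0.46 to 0.42), Zfp36 (-0.38 to 0.068) and Ier2 (-0.30 to 0.28) in silica_DMSO against silica, Fosb (-0.83 to 2.497), Fos (-1.32 to 0.80), Nr4a1 (-0.020 to 0.92), Dusp1 (-0.99 to 0.50), Atf3 (-0.43 to 0.66), Egr1 (-0.11 to 1.02), Zfp36 (-0.96 to 0.38), Jun (-1.15 to 0.56), Junb (-0.47 to 0.40) and Ier2 (-0.69 to 0.042) in silica_DMSO against DMSO, Fosb (-0.29 to 3.04), Jun (-0.021 to 1.69) and Junb (-0.30 to 0.80) in the interaction. Genes called over the whole table, 0 with edgeR, were 44, 63, 67, 1, 8 and 275 with DESeq2 for silica against control, DMSO against control, silica_DMSO against silica, silica_DMSO against DMSO, the interaction and any difference. With limma-voom and quality weights they were, in the same order, 1470, 6963, 12275, 12413, 10824 and 15297, with 4, 9, 6, 6, 7 and 10 of the 10 called. For silica against control edgeR called 41 genes with only those groups, 2 without the thymus libraries, 8 with the length offset added and 15 with the length class. For any difference these last 3 fits called 1, 5 and 3, and the length class called 1 for silica_DMSO against DMSO. No gene of the 10 was called by edgeR or DESeq2 in any of these fits. Signs also turned, with log2 values as given, under limma-voom with quality weights for Dusp1 -2.86 and Ier2 -0.41 in silica_DMSO against silica, Atf3 -0.78, Zfp36 0.38 and Junb 0.24 in silica_DMSO against DMSO, Fos -0.64, Dusp1 -1.36 and Jun -1.28 in the interaction. They turned under limma-trend on log2(TPM + 1) for Dusp1 -0.88 and Ier2 -0.16 in silica_DMSO against silica, Junb 0.14 in silica_DMSO against DMSO. They turned under limma-trend on log2(TPM + 0.1) for Dusp1 -0.91 and Ier2 -0.17 in silica_DMSO against silica, Junb 0.15 in silica_DMSO against DMSO. They turned under no filter for Dusp1 -0.0056 in silica_DMSO against silica. They turned under fits without the thymus libraries for Atf3 0.014 in DMSO against control, Fosb 0.28, Fos 0.54, Mrtfa -0.060 and Jun 0.27 in silica_DMSO against silica, Nr4a1 -0.47, Dusp1 0.093, Egr1 -0.49 and Jun 0.024 in silica_DMSO against DMSO. They turned under the length offset for Fosb 0.18, Fos 0.54, Jun 0.41 and Phgdh -0.078 in silica_DMSO against silica, Nr4a1 -0.38, Dusp1 0.094, Egr1 -0.38 and Jun 0.18 in silica_DMSO against DMSO. They turned under the length class for Fosb 0.69 in silica against control, Atf3 0.071 in DMSO against control, Fos 0.89, Jun 0.41 and Phgdh -0.13 in silica_DMSO against silica, Fos 0.31, Nr4a1 -0.15, Dusp1 0.30 and Jun 0.23 in silica_DMSO against DMSO, Zfp36 -0.11 and Junb -0.14 in the interaction.

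With the replicate number as a block (replicate block), edgeR called 0 genes, and signs turned for Dusp1 -1.28 and Ier2 -0.49 in silica_DMSO against silica, Atf3 -0.66 in silica_DMSO against DMSO, Dusp1 -0.087 and Junb -0.43 in the interaction. Same-numbered libraries of different groups did not deviate together (13 pairs, r -0.49 to 0.27, 4 over 0.1), so that the numbers were not read as pairs. With DESeq2, with its size factors in edgeR and with only the groups compared, no sign of the 10 turned. The cause of the turns was not tested. Shares of identical counts were at most 1.08% over 105 pairs of libraries.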
